A study of Homo sapiens with 282 samples.

Results

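Transcripts of 40 lysosome and autophagy genes were followed in OCI-Ly3, a human B cell lymphoma line of the diffuse large cell kind, under 14 compounds. The genes were listed by symbol for their known roles in autophagy, in the lysosome or in the control of both, and all 40 of 40 were on the array, among 18239 genes tested. Cells in 96-well plates were exposed for 6, 12 or 24 h, and RNA was measured on 282 HT HG-U219 arrays in 87 groups. The higher concentrations were 0.143 uM trichostatin A, 0.31 uM camptothecin, 20.2 uM H-7, 22 uM rapamycin, 5 uM cycloheximide, 100 uM monastrol, 0.032 uM geldanamycin, 0.101 uM doxorubicin, 0.812 uM etoposide, 0.105 uM aclacinomycin A, 100 uM blebbistatin, 100 uM methotrexate, 2.56 uM mitomycin C and 0.01 uM vincristine. Each had 3 arrays per time, except methotrexate with 6 arrays at its sole concentration. The other 13 compounds had a lower concentration as well, with 3 arrays per time. It was 0.114 uM for trichostatin A, 0.01 uM for camptothecin, 12.4 uM for H-7, 13.8 uM for rapamycin, 0.264 uM for cycloheximide, 50 uM for monastrol, 0.001 uM for geldanamycin, 0.03 uM for doxorubicin, 0.811 uM for etoposide, 0.036 uM for aclacinomycin A, 10 uM for blebbistatin, 0.553 uM for mitomycin C and 0.005 uM for vincristine. Controls at each time were 2 arrays of cells in medium alone and 8 arrays of cells given 1% DMSO, the vehicle. The samples used here are all of this single line in culture. All groups grew in IMDM with 10% serum.

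Autophagy wraps cytoplasm in a membrane that fuses with the lysosome, where acid hydrolases digest the contents. The ULK1 kinase complex and the BECN1 lipid kinase complex start the membrane, the ATG12-ATG5-ATG16L1 conjugate attaches ATG8 proteins such as MAP1LC3B to it, and receptors such as SQSTM1 bring cargo. The transcription factors TFEB and TFE3 switch on many lysosome and autophagy genes. When nutrients are ample the kinase complex mTORC1, held on the lysosome by Rag GTPases such as RRAGC and RRAGD, keeps TFEB and TFE3 out of the nucleus, and the FLCN-FNIP1 complex is a switch for those GTPases. Rapamycin blocks part of the activity of mTORC1.

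Values are log2 signals made by the authors with RMA, and a change is the mean of the treated arrays minus the mean of the DMSO arrays of the same time, on the log2 scale, with its standard error (SE). A gene was called when its limma p-value, adjusted by Benjamini and Hochberg over all 18239 genes, was under 0.05. All comparisons of a time share the same 8 DMSO arrays. Whether replicates were separate cultures is not in the labels, and the p-values measure the spread between arrays, which may be technical. RNA came from whole wells, so fewer cells of a type and less RNA per cell cannot be told apart.

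The arrays of 6 h were even, with upper quartiles of log2 signal between 8.15 and 8.35, whereas 31 of 94 arrays at 12 h and 17 of 94 at 24 h had a low upper quartile (under 8) or a large ACTB 3′ minus 5′ difference (over 2), 4 and 1 of them DMSO arrays. The median SE of a 3-array group against DMSO came to 0.0988 for 6 h, to 0.299 for 12 h and to 0.276 for 24 h. The 6 h values are therefore given first, and those of 12 and 24 h with and without the low-signal arrays. Of the B cell markers, PAX5 had a median of 7.40 over all arrays, percentile 59.0 of all genes by mean signal. MS4A1, CD79A, CD79B and CD22 had medians of 4.69, 5.11, 5.14 and 4.75, between percentiles 31.1 and 38.9 and below the T cell gene CD3D (5.32). Markers of other cell types, 9 in all, had medians between 3.79 and 5.32.

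Most of the 40 genes lay in the upper part of the array's range. The highest medians over all arrays were those of LAMP1 (12.5), a major glycoprotein of the lysosomal membrane, CTSB (12.15), a cysteine protease, and PSAP (11.97), the precursor of the saposins that help lipid digestion. CTSL, another cysteine protease, lay near the bottom of the array's range with a median of 3.87, percentile 5.7 of all genes. WIPI1, CTSS, TFE3 and ATP6V1H had medians between 6.24 and 6.97, percentiles 48.1 to 53.9. Signals of different probe sets are not levels per length, so this order is a rough one.

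At 6 h, trichostatin A, camptothecin, rapamycin, H-7 and cycloheximide moved most of the set, and 5 compounds moved none. Cycloheximide lowered more members than it raised. Trichostatin A, an inhibitor of histone deacetylases, raised 27 of the 40 genes, with 22.3% of all genes called up, and lowered 9, with 22.4% called down. Camptothecin, a topoisomerase I poison, raised 22 (background 27.0% up) and lowered 9 (background 19.9% down). Rapamycin raised 20, beside a background of 13%, and lowered 4, beside 13.6%. The kinase inhibitor H-7 raised 14 and lowered 12, against backgrounds of 23.0% up and 27.0% down. Cycloheximide, which blocks translation, raised 6 (background 16.5%) and lowered 16 (background 16.8%). The members' share of rises was 67.5% under trichostatin A and 50.0% under rapamycin, against those backgrounds. Their shares of falls under trichostatin A and camptothecin, 22.5% in each, lay near the background. So did the share of falls under H-7 (30.0%) and that of rises under cycloheximide (15.0%).

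The remaining compounds moved fewer members. Monastrol, an inhibitor of a mitotic kinesin, raised 9, a share of 22.5% against a background of 4.61%. It lowered 1, GLA (background 2.99%). Geldanamycin, an inhibitor of a heat shock chaperone, raised 6 (background 6.73%) and lowered 2 (background 9.75%). Doxorubicin raised 4 (background 3.40%) and lowered none (background 3.74%), and etoposide, a topoisomerase II poison, raised 2 (background 2.48%) and lowered none (background 2.09%). These small counts moved when arrays were left out. Here and below, leaving out a treated replicate drops that number from all treated and medium groups of the time at once. Each group then has fewer arrays, so dependence on any single treated array was not tested. Leaving out replicate 1, 2 or 3 of the treated groups left 1, 1 and 2 calls for doxorubicin, leaving out replicate 1 or 2 left none for etoposide and 6 or 5 for monastrol, and leaving out replicate 2 left 5 for geldanamycin.

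No member was called under aclacinomycin A (background 0.345% up and 0.428% down), blebbistatin (1.67% and 0.921%), methotrexate (1.17% and 0.587%), mitomycin C (1.88% and 1.09%) or vincristine (0.532% and 0.417%). At an unadjusted p under 0.05, limma listed 2, 3, 12, 3 and 3 members for these compounds, in that order. The share of all genes at that unadjusted threshold is not given, so these counts have no background beside them. Doxorubicin and aclacinomycin A are both anthracyclines, but were given at 0.101 and 0.105 uM, so their values stand side by side without a test. NEU1, the lysosomal sialidase, differed from DMSO by 0.19 ± 0.05 (SE) under doxorubicin and by 0.08 ± 0.05 under aclacinomycin A. SQSTM1 differed by 0.20 ± 0.05 under doxorubicin and by 0.15 ± 0.05 under aclacinomycin A.

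**Figure D1:**
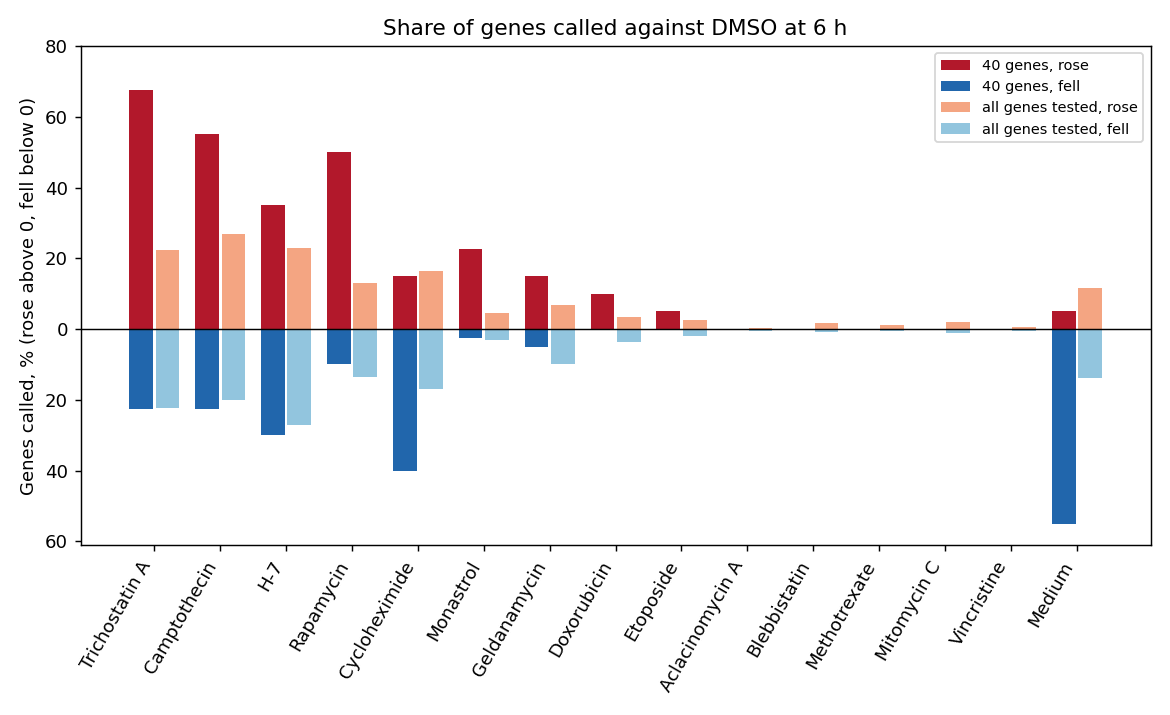
Share of genes called against DMSO at 6 h, in %, with rises above 0 and falls below 0, for the higher concentration of each compound and for medium alone. Dark bars are the 40 lysosome and autophagy genes and pale bars all 18239 genes tested; the dark bar of rises exceeds the pale one most under trichostatin A (67.5% against 22.3%), and the dark bar of falls does so most in medium (55.0% against 13.8%).

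Every one of the 40 members was called in at least 1 of the 14 comparisons at 6 h. Of the 40, 28 rose under some compounds and fell under others. The shares of all genes that do so are not given, so these counts describe the list only. Camptothecin alone called 27.0% of all genes up and 19.9% down. NEU1 and NPC2, a carrier of cholesterol inside the lysosome, were called most often, each with 7 rises and 1 fall. MAP1LC3B rose in 5 comparisons and fell in none. TFEB went the other way, with 1 rise and 4 falls. The 2 members that fell without any rise were ATG4A, a protease that processes ATG8 proteins, and TFE3.

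**Figure D2:**
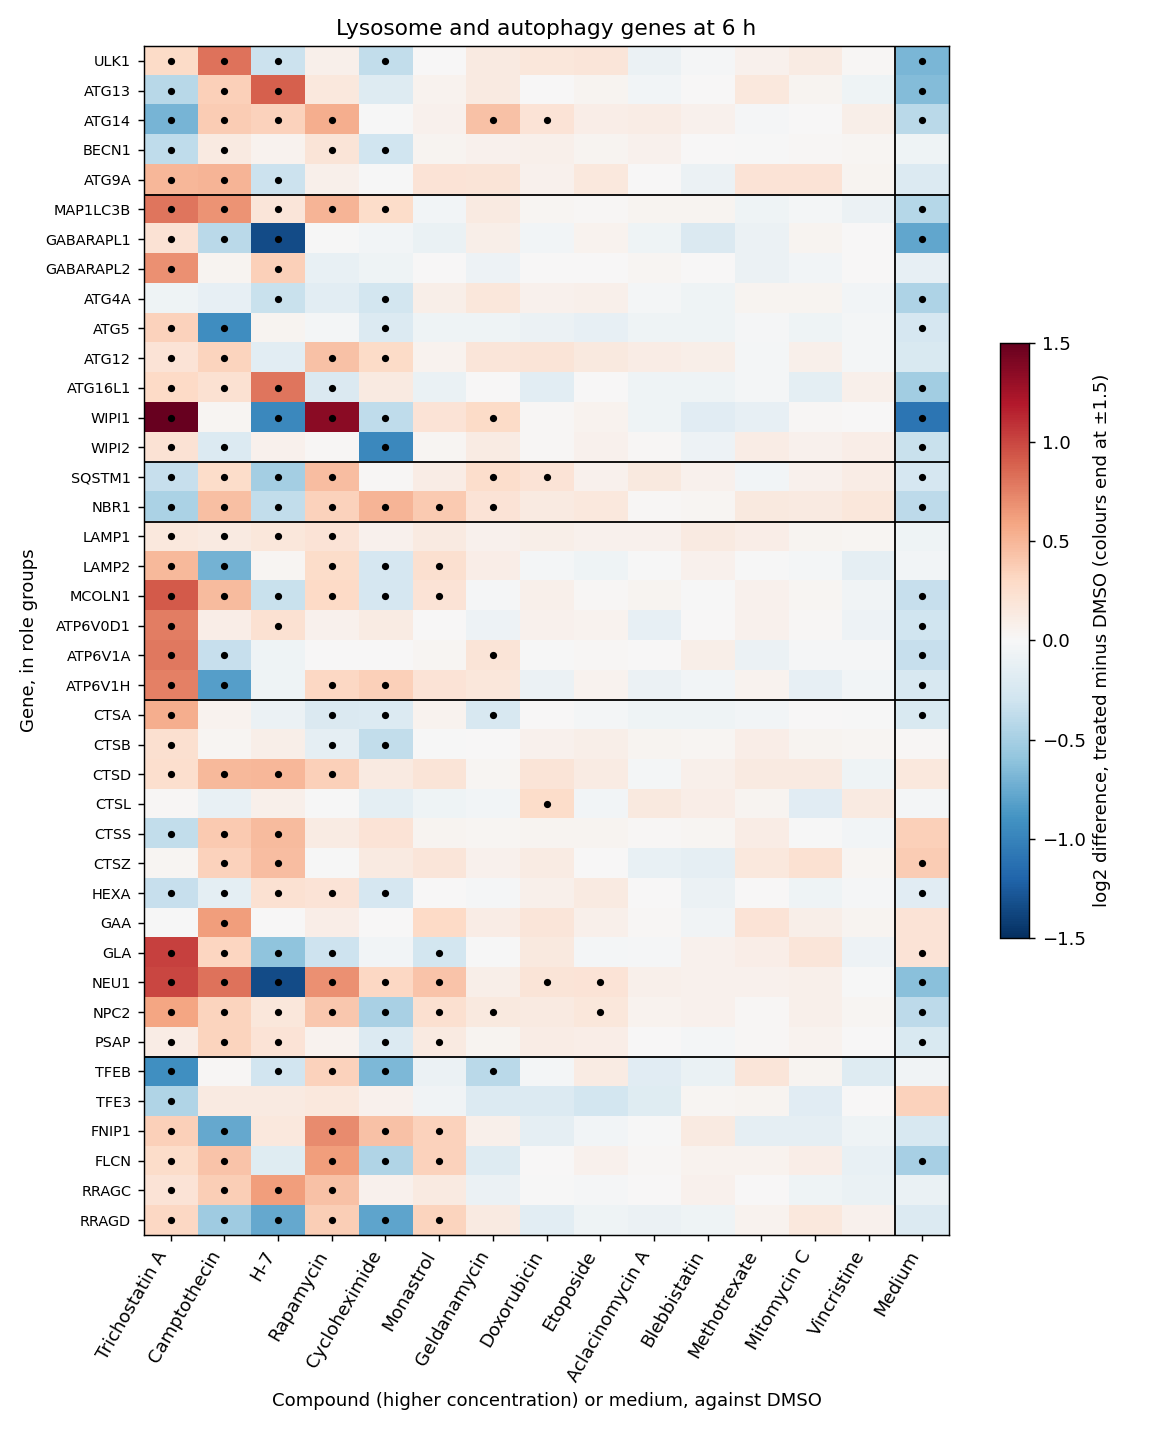
Differences from DMSO at 6 h (log2, colours end at ±1.5) for the 40 genes, in rows by role, under the higher concentration of 14 compounds and in medium alone, in columns. A dot marks a call at an adjusted p under 0.05; WIPI1 under trichostatin A (2.12) lies beyond the colour range, and the medium column is mostly blue.

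TFEB and TFE3 bind a palindrome, TCACGTGA, whose inner part CACGTG is the E-box that many related factors share. RefSeq promoter windows (GRCh38.p14), from 250 bases before to 50 bases after each annotated start, were at hand for 32 of the 40 genes, 40 windows in all. TCACGTGA lay in 5 of the 40 windows (12.5%), those of MCOLN1, ATP6V0D1, GAA, CTSA and LAMP1, and in 344 of all 35116 windows (0.98%). CACGTG lay in 10 of the 40 (25.0%) and in 2548 of all windows (7.26%). Each motif is its own reverse complement, so both strands were searched at once, and every TCACGTGA also counts as a CACGTG. The other 5 windows with CACGTG were those of ATG14, CTSD, FNIP1, NEU1 and RRAGC. The genes were listed for this pathway, and several are known for the motif, so the shares describe the list and a match is not proof of binding.

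Shown are the windows of the 4 genes with TCACGTGA that had the largest called changes at 6 h, in either direction. For all 4 the largest change was a rise, under trichostatin A or camptothecin. MCOLN1 (chr19:7522374-7522673, plus strand) encodes a calcium channel of the lysosomal membrane, and ATP6V0D1 (chr16:67481108-67481407, minus strand) a subunit of the proton pump that acidifies the lysosome. GAA (chr17:80101331-80101630, plus strand) encodes the enzyme that digests glycogen, and CTSA (chr20:45891085-45891384, plus strand) a carboxypeptidase that protects NEU1. Each sequence runs 5′ to 3′ on the strand of its gene, and capitals mark CACGTG.
MCOLN1: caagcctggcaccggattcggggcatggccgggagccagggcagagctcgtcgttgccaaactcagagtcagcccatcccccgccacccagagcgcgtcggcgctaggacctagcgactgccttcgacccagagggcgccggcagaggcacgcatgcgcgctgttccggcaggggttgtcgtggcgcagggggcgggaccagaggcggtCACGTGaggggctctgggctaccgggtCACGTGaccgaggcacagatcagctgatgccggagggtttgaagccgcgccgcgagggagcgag
ATP6V0D1: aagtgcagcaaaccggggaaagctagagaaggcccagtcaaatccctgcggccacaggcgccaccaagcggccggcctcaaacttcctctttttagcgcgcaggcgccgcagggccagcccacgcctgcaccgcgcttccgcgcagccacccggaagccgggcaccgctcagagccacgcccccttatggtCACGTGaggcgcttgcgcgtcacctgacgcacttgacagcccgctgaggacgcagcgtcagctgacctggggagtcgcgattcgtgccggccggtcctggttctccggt
GAA: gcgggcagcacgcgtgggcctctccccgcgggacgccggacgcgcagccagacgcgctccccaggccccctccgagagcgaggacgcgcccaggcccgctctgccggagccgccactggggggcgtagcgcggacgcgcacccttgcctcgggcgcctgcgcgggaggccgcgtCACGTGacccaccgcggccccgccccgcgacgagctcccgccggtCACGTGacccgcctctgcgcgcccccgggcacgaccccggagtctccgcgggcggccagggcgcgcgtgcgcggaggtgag
CTSA: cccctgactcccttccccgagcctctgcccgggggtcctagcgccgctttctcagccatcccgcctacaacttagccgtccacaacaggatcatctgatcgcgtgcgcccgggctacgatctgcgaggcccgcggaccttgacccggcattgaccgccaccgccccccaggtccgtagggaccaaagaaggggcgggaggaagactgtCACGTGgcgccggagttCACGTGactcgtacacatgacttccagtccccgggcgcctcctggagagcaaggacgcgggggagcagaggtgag

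Counting from the annotated start, the CACGTG of MCOLN1 began 41 and 14 bases upstream, that of ATP6V0D1 59 bases, those of GAA 76 and 31 bases, and those of CTSA 42 and 25 bases upstream. LAMP1 held the most, 6 matches between 192 bases and 1 base upstream. Of the 10 genes with CACGTG in a window, 7 rose and 1 fell under rapamycin (backgrounds 13% and 13.6%). Their median change was 0.33. Of the 22 with windows that lack CACGTG, 9 rose and 2 fell, with a median of 0.12. Under trichostatin A (backgrounds 22.3% and 22.4%), 8 of the 10 rose and 1 fell (median 0.31). Of the 22, 13 rose and 6 fell (median 0.22). Under camptothecin (backgrounds 27.0% and 19.9%) 7 of the 10 rose and 1 fell, against 13 and 3 of the 22. In medium (backgrounds 11.7% and 13.8%) none of the 10 was higher than in DMSO and 5 were lower. Of the 22, 2 were higher there and 13 lower. Under H-7 (backgrounds 23.0% and 27.0%) 5 of the 10 rose and 2 fell, against 6 and 9 of the 22. Under cycloheximide (backgrounds 16.5% and 16.8%) 2 of the 10 rose and 2 fell, against 3 and 9 of the 22. These are counts over few genes and were not tested. The shares among all genes with and without CACGTG are not given, so no link to the motif is drawn.

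**Figure D3:**
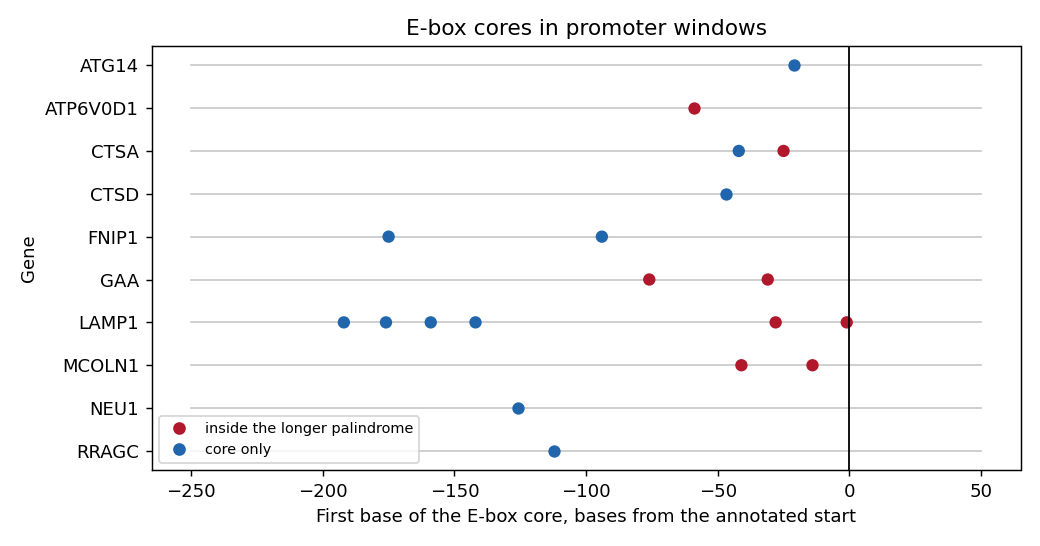
Position of each CACGTG match, by its first base in bases from the annotated start (vertical line), in the promoter windows of the 10 genes that hold it (grey lines span the window). Red points lie inside the longer palindrome and blue points do not; most matches lie within 100 bases upstream of the start, and LAMP1 has 6.

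Among the genes that start the autophagic membrane, ULK1 and ATG13 had the largest changes. ULK1, the initiating kinase, read 8.57, 8.77 and 8.80 under camptothecin, against a lowest of 7.64, a median of 7.92 and a highest of 8.10 in DMSO. All 3 camptothecin arrays lay above all 8 DMSO arrays, a change of 0.81 ± 0.10 (adjusted p = 1.24e-11). ULK1 also rose under trichostatin A (0.29) and fell under H-7 (-0.32) and cycloheximide (-0.37). ATG13, the adaptor of the ULK1 complex, read 10.15, 10.10 and 9.97 under H-7, against 9.05, 9.16 and 9.31 (lowest, median, highest) in DMSO, with no overlap. Its change was 0.90 ± 0.08 (adjusted p = 1.35e-17), and under trichostatin A it fell by 0.42. Under camptothecin the probe set used rose by 0.36 and the other 2 of ATG13 fell, by up to 0.57.

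All 5 initiation genes of the set rose under camptothecin (background 27.0% up), ATG13 by 1 of its 3 probe sets, with a median change of 0.38. This did not extend to 12 other genes of initiation, nucleation and lipid transfer. Of those, 2 rose and 7 fell under camptothecin (background 19.9% down), with a median of -0.4. Under trichostatin A the 5 genes of the set split. ATG14, which directs the lipid kinase to autophagy, fell by 0.70, and BECN1 and ATG13 fell too. ULK1 and ATG9A, a lipid scramblase, rose (ATG9A by 0.50). Rapamycin raised ATG14 by 0.54 ± 0.07 (adjusted p = 2.04e-10) and BECN1 by 0.19. Geldanamycin raised ATG14 by 0.44 ± 0.07 (adjusted p = 2.74e-07), its largest rise in the set. Under doxorubicin ATG14 differed by 0.21, a call lost when any treated replicate was left out (0.18, 0.25 and 0.20) or DMSO replicate 2 (0.20) or 3 (0.19).

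WIPI1, which reads the lipid signal on the young membrane, had the widest range of all 40 genes. It read 9.52, 9.33 and 9.30 under trichostatin A, 8.52, 8.56 and 8.77 under rapamycin, and 6.27, 6.34 and 6.26 under H-7, against 7.08, 7.28 and 7.43 (lowest, median, highest) in DMSO. The trichostatin A and rapamycin arrays lay above every DMSO array and the H-7 arrays below every one. The changes were 2.12 ± 0.08 under trichostatin A (adjusted p = 2.38e-38), 1.35 ± 0.08 under rapamycin (adjusted p = 1.24e-24) and -0.97 ± 0.08 under H-7 (adjusted p = 7.71e-18). WIPI1 also fell under cycloheximide (-0.38), and under geldanamycin it differed by 0.29, or by 0.23 and without a call when replicate 2 was left out. WIPI2, its close relative, fell by 0.97 ± 0.05 under cycloheximide (adjusted p = 8.56e-29) and rose by 0.22 under trichostatin A. Another probe set of WIPI2 rose by 1.02 under camptothecin, where the one used fell by 0.21.

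The ATG8 proteins did not move as a block. GABARAPL1 read 6.76, 6.94 and 7.04 under H-7, against 8.12, 8.22 and 8.46 (lowest, median, highest) in DMSO. The groups were apart by more than 1 log2 unit, and the change was -1.34 ± 0.08 (adjusted p = 1.07e-26). GABARAPL1 fell by 0.40 under camptothecin and rose by 0.22 under trichostatin A. GABARAPL2 rose under trichostatin A (0.68) and H-7 (0.36). MAP1LC3B, the most used marker of autophagic membranes, rose under trichostatin A (0.80 ± 0.05, adjusted p = 2.52e-23), camptothecin (0.67 ± 0.05, adjusted p = 2.46e-19), rapamycin (0.51), cycloheximide (0.28) and H-7 (0.18).

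The conjugation genes differed among themselves as well. ATG5 fell by 0.93 ± 0.05 under camptothecin (adjusted p = 7.84e-28), the largest fall for that compound, and rose by 0.34 under trichostatin A. ATG16L1 rose by 0.80 ± 0.08 under H-7 (adjusted p = 5.36e-15). Under rapamycin ATG16L1 differed by -0.22, a call lost without replicate 2 (-0.16) or 3 (-0.19), or without DMSO replicate 5 (-0.19). ATG12 rose under rapamycin (0.44), camptothecin (0.33), cycloheximide (0.29) and trichostatin A (0.20), but its 2 probe sets disagree: the other one fell by 0.42 under rapamycin and by 0.41 under trichostatin A. ATG4A fell under H-7 (-0.33) and cycloheximide (-0.28).

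The cargo receptors SQSTM1 and NBR1, which link ubiquitin-tagged cargo to ATG8 proteins, rose together under camptothecin, rapamycin and geldanamycin and fell together under trichostatin A and H-7. SQSTM1 read 11.97, 11.88 and 12.03 under rapamycin and 11.04, 10.94 and 10.99 under H-7, against 11.33, 11.52 and 11.58 (lowest, median, highest) in DMSO. Neither group overlapped DMSO, and the changes were 0.46 ± 0.05 under rapamycin (adjusted p = 6.27e-13) and -0.51 ± 0.05 under H-7 (adjusted p = 9.28e-16). Geldanamycin raised SQSTM1 by 0.26, and the doxorubicin difference of 0.20 was no longer called without replicate 1 (0.17). NBR1 read 9.46, 9.62 and 9.44 under cycloheximide, against 8.80, 9.02 and 9.11 in DMSO, with no overlap. Its change there was 0.51 ± 0.07 (adjusted p = 5.33e-09), and monastrol raised it by 0.39. Of its 6 probe sets, 2 fell under camptothecin and 1 rose under H-7, against the direction of the one used.

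The lysosomal membrane group rose as a whole under trichostatin A, with 6 of 6 members called (background 22.3% up) and a median change of 0.76. MCOLN1 read 9.93, 9.84 and 9.88 there and 9.48, 9.38 and 9.44 under camptothecin, against 8.78, 8.98 and 9.08 (lowest, median, highest) in DMSO. Both groups lay above all DMSO arrays, by 0.92 ± 0.06 under trichostatin A (adjusted p = 7.88e-23) and 0.47 ± 0.06 under camptothecin (adjusted p = 7.61e-10). The pump subunits ATP6V1A, ATP6V0D1 and ATP6V1H rose under trichostatin A by 0.79, 0.77 and 0.75. Under camptothecin ATP6V1H read 6.36, 6.24 and 6.22, against 7.00, 7.11 and 7.19 in DMSO. It fell without overlap, by 0.83 ± 0.07 (adjusted p = 7.29e-18), and ATP6V1A fell by 0.35.

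LAMP2, a partner of LAMP1 in the lysosomal membrane, fell by 0.71 ± 0.08 under camptothecin (adjusted p = 7.22e-14) but 4 of its 9 probe sets were called as rises there, up to 0.51. Under trichostatin A it rose by 0.49, under rapamycin by 0.27 and under monastrol by 0.24. LAMP1 changed little: its 4 calls, all rises, reached at most 0.21, under rapamycin. Rapamycin raised 4 of the 6 membrane genes (background 13%), MCOLN1 (0.30), ATP6V1H (0.31), LAMP2 and LAMP1, and lowered none (background 13.6%).

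Of the 12 lysosomal enzymes and cofactors, 7 rose and 2 fell under trichostatin A, 8 rose and 1 fell under camptothecin, 6 rose and 2 fell under H-7, and 4 rose and 3 fell under rapamycin. Over all genes the shares called up and down were 22.3% and 22.4% under trichostatin A, 27.0% and 19.9% under camptothecin, 23.0% and 27.0% under H-7, and 13% and 13.6% under rapamycin. The falls among the enzymes under trichostatin A, camptothecin and H-7 were thus no more frequent than over all genes. NEU1 read 10.51, 10.51 and 10.56 under trichostatin A, 10.40, 10.32 and 10.29 under camptothecin, 10.20, 10.25 and 10.17 under rapamycin and 8.23, 8.24 and 8.07 under H-7, against 9.42, 9.52 and 9.63 (lowest, median, highest) in DMSO. None of these groups overlapped DMSO. The changes were 1.00 ± 0.05 under trichostatin A (adjusted p = 7.95e-30), 0.81 ± 0.05 under camptothecin (adjusted p = 2.80e-24), 0.68 ± 0.05 under rapamycin (adjusted p = 5.88e-19) and -1.34 ± 0.05 under H-7 (adjusted p = 2.75e-38). Monastrol (0.43 ± 0.05, adjusted p = 3.58e-09) and cycloheximide (0.31) raised NEU1 too. The etoposide difference of 0.20 lost its call without replicate 1 (0.19) or 2 (0.16), as did that of NPC2 (0.17), which read 0.14 and 0.17 there.

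GLA, the enzyme that removes galactose from glycolipids, went against NEU1 in some comparisons. It read 10.46, 10.43 and 10.39 under trichostatin A and 9.14, 9.06 and 9.04 under rapamycin, against 9.27, 9.38 and 9.55 (lowest, median, highest) in DMSO. The trichostatin A arrays lay above and the rapamycin arrays below every DMSO array. GLA rose by 1.03 ± 0.06 under trichostatin A (adjusted p = 4.82e-30) and fell by 0.31 ± 0.06 under rapamycin (adjusted p = 2.44e-06), by 0.27 ± 0.06 under monastrol (adjusted p = 0.000264) and by 0.60 under H-7. CTSA likewise rose under trichostatin A (0.54) and fell under rapamycin (-0.22 ± 0.05, adjusted p = 0.000695), geldanamycin (-0.24 ± 0.05, adjusted p = 0.000336) and cycloheximide (-0.20).

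The cathepsins followed no common course. CTSD, an aspartic protease, rose under H-7 (0.50), camptothecin (0.49), rapamycin (0.36) and trichostatin A (0.25) and fell under none of the compounds. CTSS, a cysteine protease of antigen-presenting cells, rose under H-7 (0.47) and camptothecin (0.39) and fell under trichostatin A (-0.37). CTSZ rose under H-7 (0.46) and camptothecin (0.34), and CTSB fell under cycloheximide (-0.37) and rapamycin (-0.13) and rose under trichostatin A (0.24). The low CTSL was called under doxorubicin alone (0.28), where its arrays overlap DMSO and the call went when any 1 treated replicate was left out (0.31, 0.26 and 0.29) or DMSO replicate 5, 6, 7 or 8 (0.24, 0.29, 0.27 and 0.27).

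NPC2 was called higher under 7 compounds, among them trichostatin A (0.59), rapamycin (0.41), monastrol (0.24) and geldanamycin (0.15), and fell under cycloheximide (-0.49). PSAP rose under camptothecin (0.33), H-7 (0.21), monastrol (0.14) and trichostatin A (0.11) and fell under cycloheximide (-0.20). GAA rose under camptothecin alone, by 0.63 ± 0.12 (adjusted p = 2.48e-06). HEXA, a subunit of the enzyme that digests gangliosides, rose under H-7 (0.23) and rapamycin (0.20) and fell under trichostatin A (-0.34), cycloheximide (-0.25) and camptothecin (-0.15). Its probe sets disagree, since 1 of 8 rose under camptothecin and 2 of 8 fell under H-7.

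TFEB, the factor at the head of the pathway, read 7.98, 8.01 and 7.71 under trichostatin A, 9.20, 9.02 and 9.26 under rapamycin and 8.14, 8.30 and 8.01 under cycloheximide, against 8.64, 8.82 and 9.0 (lowest, median, highest) in DMSO. The trichostatin A and cycloheximide arrays lay below, and the rapamycin arrays above, all those of DMSO. The changes were -0.92 ± 0.10 under trichostatin A (adjusted p = 1.71e-13), 0.34 ± 0.10 under rapamycin (adjusted p = 0.00464) and -0.67 ± 0.10 under cycloheximide (adjusted p = 2.54e-08). TFEB also fell under H-7 (-0.29) and geldanamycin (-0.41 ± 0.10, adjusted p = 0.00144). The geldanamycin call was lost without replicate 1 (-0.36). TFE3 fell under trichostatin A by 0.45. Under trichostatin A the transcripts of both factors fell while 27 other members rose.

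Rapamycin raised 5 of the 6 genes of this group (background 13%), with a median change of 0.40. FNIP1 rose by 0.71 ± 0.09 (adjusted p = 1.05e-09), FLCN by 0.63, RRAGC by 0.44, RRAGD by 0.37 and TFEB as above. Of 18 other genes of nutrient control at the lysosome, 4 rose and 3 fell under rapamycin (background 13.6% down). Their median change was -0.05. Camptothecin split the partners FNIP1 and FLCN: FNIP1 fell by 0.77 ± 0.09 (adjusted p = 1.18e-11) while FLCN rose by 0.43. Cycloheximide did the reverse, with FNIP1 up by 0.44 ± 0.09 (adjusted p = 5.65e-05) and FLCN down by 0.45. Monastrol raised FNIP1 (0.34 ± 0.09, adjusted p = 0.0103), FLCN and RRAGD (0.33). The FLCN difference of 0.35 under monastrol lost its call without replicate 2 (0.29) or 3 (0.37).

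RRAGD and RRAGC are near relatives with like roles, yet H-7 moved them apart. RRAGD fell under H-7 by 0.77 ± 0.08 (adjusted p = 2.49e-13), whereas RRAGC rose there by 0.63 ± 0.06 (adjusted p = 2.24e-15). RRAGD read 7.21, 7.46 and 7.40 under cycloheximide, against 7.91, 8.16 and 8.33 (lowest, median, highest) in DMSO. It fell without overlap, by 0.79 ± 0.08 (adjusted p = 1.95e-13), and under camptothecin by 0.53. RRAGC fell in no comparison of a higher concentration at 6 h.

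**Figure D4:**
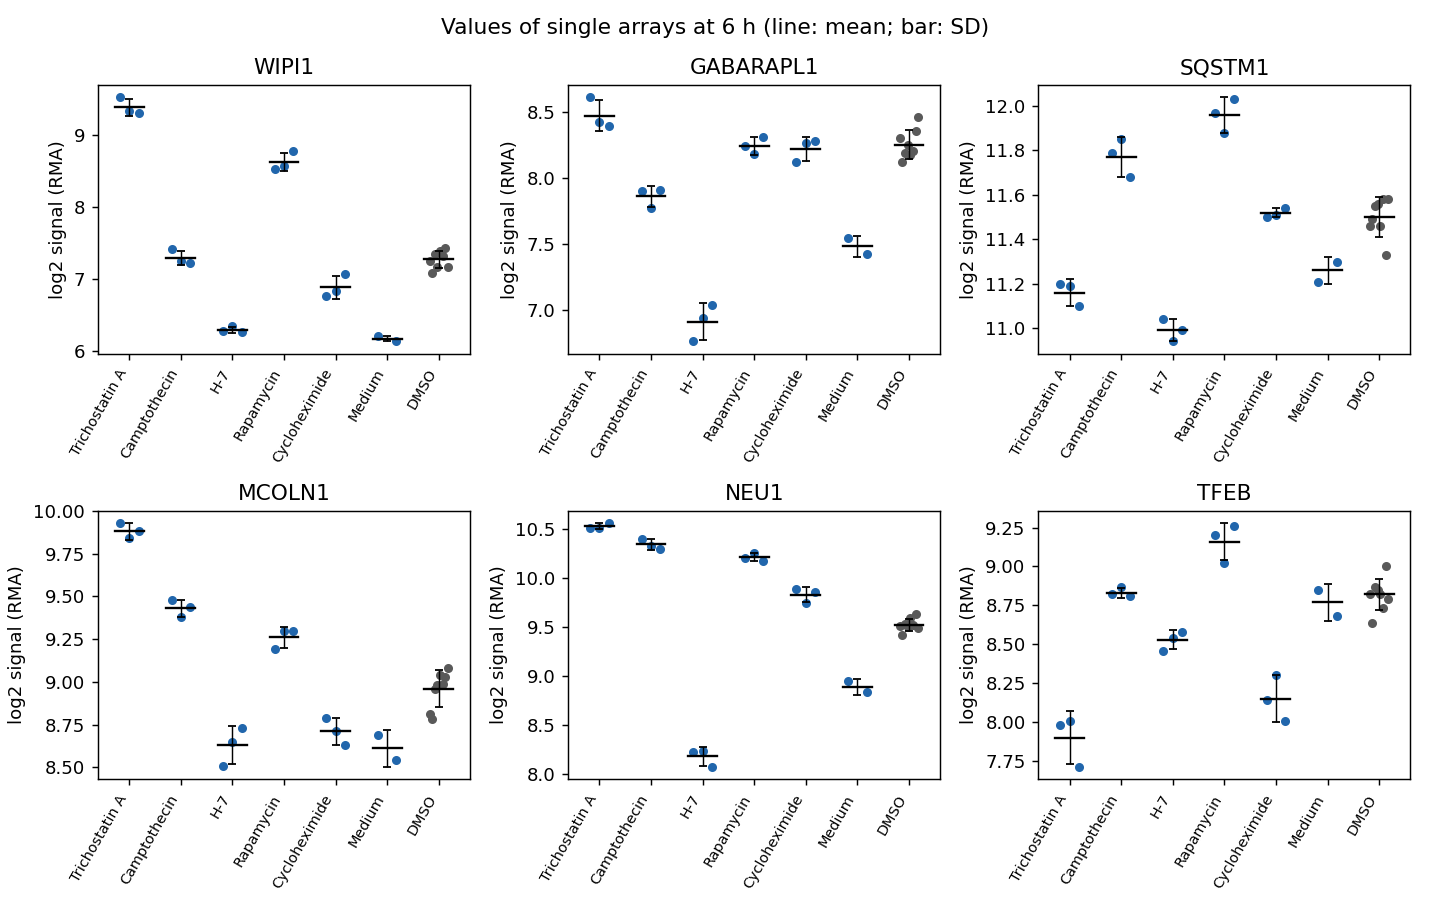
Log2 signal (RMA) of each array at 6 h for WIPI1, GABARAPL1, SQSTM1, MCOLN1, NEU1 and TFEB under 5 compounds (3 arrays each), in medium (2 arrays) and in DMSO (8 arrays, grey), with the mean as a line and the SD as a bar. WIPI1 under trichostatin A lies between 9.30 and 9.52 and in medium between 6.14 and 6.20, while DMSO lies between 7.08 and 7.43.

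Cells in medium alone had lower transcripts of many of these genes than cells in DMSO at 6 h. Of the 40 genes 22 were lower in medium (background 13.8% of all genes lower) and 2 were higher (background 11.7% higher), with a median difference of -0.24 against -0.005 over all genes. WIPI1 read 6.20 and 6.14 in medium, against 7.08, 7.28 and 7.43 (lowest, median, highest) in DMSO, a difference of -1.09 ± 0.10 (adjusted p = 6.00e-16). GABARAPL1 read 7.54 and 7.42 in medium, against 8.12, 8.22 and 8.46 in DMSO, a difference of -0.78 ± 0.09 (adjusted p = 9.79e-11). ULK1 read 7.24 and 7.17 in medium, against 7.64, 7.92 and 8.10 in DMSO, a difference of -0.69 ± 0.11 (adjusted p = 6.98e-07). All 22 members lower in medium had both medium arrays below all 8 DMSO arrays. They were called from these same arrays, so the separation is not separate evidence, and its share over all genes is not given.

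NEU1 (-0.63), ATG13 (-0.65), ATG16L1 (-0.52) and FLCN (-0.50) were lower in medium as well, and CTSZ (0.38) and GLA (0.21) higher, with overlapping arrays for the last 2. The CTSZ call was lost without medium replicate 2 (0.34) and the GLA call without replicate 1 (0.12). The count of 24 rests on 2 medium arrays and was 20 without replicate 1 and 15 without replicate 2, where the lone array is assumed to vary like the other groups. With all arrays limma called no member in medium at 12 or 24 h. At an unadjusted p under 0.05 there were 3 and 5, with no background given for that threshold. At 12 h, with low-signal arrays left out, 18 members were lower in medium (background 7.76%) and 3 higher (background 6.67%), and at 24 h 17 were lower (background 11.1%) and 4 higher (background 9.12%). WIPI1 differed by -1.62 at 12 h and by -1.16 at 24 h, and NEU1 by -0.71 and -0.74. The rises under compounds are measured from the same DMSO arrays that lie above medium, so the medium and compound differences are not independent.

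The lower concentrations gave 81 calls at 6 h over 13 compounds and 520 tests, with 10.8% of tests up (background 5.00%) and 4.81% down (background 4.51%). Trichostatin A at 0.114 uM raised 25 members (background 22.4%) and lowered 9 (background 21.9%). Rapamycin at 13.8 uM raised 17 (background 10.7%) and lowered 1, GLA (background 7.11%). H-7 at 12.4 uM raised 11 (background 15.5%) and lowered 8 (background 18%). Cycloheximide at 0.264 uM raised none (background 5.32%) and lowered 5 (background 4.44%). WIPI1 rose by 2.01 under 0.114 uM trichostatin A and by 0.72 under 13.8 uM rapamycin, and NEU1 fell by 0.93 under 12.4 uM H-7.

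A direct test of the higher against the lower concentration at 6 h gave 69 member calls in 520 tests, 7.31% up (background 3.87%) and 5.96% down (background 4.63%). The 13 compounds include etoposide, whose concentrations of 0.812 and 0.811 uM are nearly the same and which had no member called in this test. The test gave 41 without replicate 1 and 42 without replicate 2. Camptothecin at 0.31 uM differed from 0.01 uM in 24 members, 16 up (background 20.9%) and 8 down (background 18.2%), led by ATG5 (-0.78) and ULK1 (0.74). H-7 at 20.2 uM differed from 12.4 uM in 21, 7 up (background 11.3%) and 14 down (background 19.4%), and GABARAPL1 was lower by 0.93 ± 0.10 (adjusted p = 2.96e-13). Cycloheximide at 5 uM differed from 0.264 uM in 14, 6 up (background 10.4%) and 8 down (background 10.8%), with WIPI2 lower by 0.91. Rapamycin at 22 uM was higher than 13.8 uM in 6 members (background 2.40%), WIPI1 (0.63), FLCN (0.49), RRAGC (0.48), NEU1 (0.29), MAP1LC3B (0.24) and SQSTM1 (0.20), and lower in none (background 3.76%).

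Trichostatin A at 0.143 uM differed from 0.114 uM in none of the 40 genes and in none of all genes, at doses close to each other. At an unadjusted p under 0.05 limma listed 0 members in that comparison. The WIPI1 difference between the doses was 0.11 ± 0.10 (SE).

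Other genes of the pathway, 100 of 106 listed ones being on the array, were read beside the 40. Trichostatin A raised 56 of the 100 (background 22.3%) and lowered 21 (background 22.4%), with LGMN, a lysosomal protease (1.82), GM2A, a ganglioside activator (1.29), and ASAH1, acid ceramidase (1.29), highest, and ARSB (-1.74), CTSO (-1.55) and FUNDC1 (-1.30), a receptor for mitochondria, lowest. Camptothecin raised 43 (background 27.0%) and lowered 40 (background 19.9%). The conjugation enzymes ATG10 (-2.04 ± 0.09) and ATG7 (-1.93 ± 0.09) fell furthest there, with the sulfatase gene ARSB (-1.66), and LGMN (0.99), FUCA1 (0.87), a fucosidase, and SNAP29 (0.71), a fusion protein, rose most. H-7 raised 28 (background 23.0%) and lowered 48 (background 27.0%), with RPTOR, the scaffold of mTORC1, down by 2.18 ± 0.09, the pump subunit ATP6V0A2 and the phosphatase ACP2 down by 1.43 each, and AMBRA1 (0.73), MAP1LC3A (0.67) and CTSH (0.65) up.

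Rapamycin raised 29 of the 100 (background 13%) and lowered 11 (background 13.6%). The cholesterol transporter NPC1 (0.80 ± 0.07), MANBA, a mannosidase (0.64), and CTNS, the cystine exporter of the lysosome (0.63), rose most, and PIK3R4, a subunit of the BECN1 complex (-0.58), GM2A (-0.41) and LAMTOR2, a Rag anchor (-0.38), fell most. NPC1, the partner of the member NPC2, was also the lowest of the 100 in medium against DMSO (-0.73). The median change of the 100 was 0.05 under rapamycin, against 0.18 for the 40, and 0.22 under trichostatin A, against 0.25 for the 40. In medium 9 of the 100 were higher than in DMSO (background 11.7%) and 41 lower (background 13.8%).

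At 12 h, 25 of 560 member tests at the higher concentrations were called, 3.75% up (background 1.53%) and 0.714% down (background 1.24%), and the count was 1, 82 and 6 without replicates 1, 2 and 3. Without the low-signal arrays, 118 of 440 tests were called, 21.4% up (background 6.72%) and 5.45% down (background 6.28%). Aclacinomycin A, blebbistatin and doxorubicin lost all 3 arrays there and have no value, and rapamycin and etoposide rest on 1 array each, which is assumed to vary like the other groups. Without those 2 compounds 105 of 360 tests were called, 22.8% up (background 7.48%) and 6.39% down (background 6.70%). WIPI1 differed by 2.59 ± 0.25 under trichostatin A (adjusted p = 6.50e-13) and MAP1LC3B by 1.37 ± 0.09 under camptothecin (adjusted p = 2.40e-18) in that fit.

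At 24 h, 40 of 560 tests were called, 2.86% up (background 2.49%) and 4.29% down (background 3.88%), shares near the background. Without the low-signal arrays 221 of 560 were called, 31.6% up (background 11.5%) and 7.86% down (background 12.5%). Camptothecin raised 30 and lowered 1 (backgrounds 18.6% and 15.4%), rapamycin raised 24 and lowered 1 (backgrounds 14.5% and 13.2%), doxorubicin raised 22 and lowered 2 (backgrounds 15.9% and 19.9%) and mitomycin C raised 17 and lowered 3 (backgrounds 14.2% and 15.6%). Trichostatin A raised 10 and lowered 4 (backgrounds 15.7% and 15.5%), and H-7 raised 4 and lowered 7 (backgrounds 9.73% and 11.1%). All of these but doxorubicin rest on 2 treated arrays and 7 DMSO arrays.

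GABARAPL1 under camptothecin had the largest called rise at 24 h, with all arrays and without the low-signal ones. It read 7.93, 8.37 and 8.54 under camptothecin, the lowest being a low-signal array, and 8.23, 8.16 and 7.91 under rapamycin, the last being one too, against 6.23, 6.94 and 7.12 (lowest, median, highest) in DMSO. All arrays of both compounds lay above all 8 DMSO arrays, by 1.46 under camptothecin and 1.27 under rapamycin with all arrays, and by 1.64 ± 0.19 (adjusted p = 2.10e-11) and 1.38 ± 0.19 (adjusted p = 9.69e-09) without low-signal ones. SQSTM1 read 12.41, 12.30 and 12.32 under camptothecin and 12.17, 12.13 and 12.17 under rapamycin, against 11.15, 11.30 and 11.44 in DMSO. Without low-signal arrays it rose by 1.02 ± 0.06 under camptothecin (adjusted p = 7.60e-26) and by 0.86 ± 0.06 under rapamycin (adjusted p = 4.07e-21). CTSS rose under camptothecin by 1.21 with all arrays and by 1.61 without low-signal ones, and ATG5 fell there by 0.84 and 0.68. The ATG5 call with all arrays was lost without replicate 1 (-0.69) and without any DMSO replicate but the fifth, with values between -0.85 and -0.82.

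TFEB rose at 24 h under mitomycin C, doxorubicin, etoposide and methotrexate. It read 9.86, 9.15 (a low-signal array) and 9.39 under mitomycin C and 9.16, 9.24 and 9.15 under doxorubicin, against 7.97, 8.43 and 8.95 (lowest, median, highest) in DMSO. All treated arrays were above all DMSO arrays, with changes of 1.01 under mitomycin C and 0.73 under doxorubicin with all arrays, and 1.10 ± 0.13 (adjusted p = 9.44e-11) and 0.66 ± 0.11 (adjusted p = 9.29e-07) without low-signal ones. Etoposide (0.76 and 0.69) and methotrexate (0.60 and 0.53) raised it too. With all arrays, the doxorubicin and etoposide calls were lost without replicate 1 (0.74 and 0.78) or 2 (0.70 and 0.72), and the methotrexate call without replicate 2 (0.60) or with same-numbered arrays averaged (0.60). LAMP1 rose under doxorubicin by 0.34 with all arrays and by 0.32 without low-signal ones, the first call being lost without replicate 1 (0.36) or 2 (0.32).

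Most of the falls named at 24 h were smaller without the low-signal arrays. CTSA fell under mitomycin C by 1.61 with all arrays and by 0.44 without the low-signal one (no call without replicate 2, -0.42), and LAMP2 fell by 1.5 and 0.35 (no call without replicate 2, -0.31). Under cycloheximide CTSA fell by 1.58 and 0.67 (no call without replicate 3, -0.75), BECN1 by 0.48 and 0.47 (no call without replicate 1, -0.41), and NBR1 rose by 0.85 and 0.71. Under H-7 NEU1 fell by 1.29 and 0.86 (no call without replicate 3, -0.88), RRAGC by 1.27 and 0.25 (no call without replicate 3, -0.28), and CTSB rose by 0.54 and 0.48. The CTSB call with all arrays was lost without replicate 1 (0.54) or 3 (0.51) and without DMSO replicate 7 (0.50) or 8 (0.53).

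The change between 6 and 24 h was tested directly as the difference at 24 h minus that at 6 h. With all arrays 24 of 560 tests were called, 0.893% up (background 1.09%) and 3.39% down (background 2.12%), 37 without replicate 2. Without low-signal arrays 141 were called and rises outnumbered falls, 17.5% up (background 8.08%) and 7.68% down (background 8.22%). With all arrays the backgrounds up and down were 0.482% and 1.44% under camptothecin, 4.47% and 8.28% under H-7, 2.91% and 9.87% under mitomycin C, 0.0329% and 0.143% under rapamycin, and 3.57% and 6.24% under trichostatin A. The members called were 1 up under camptothecin, 1 up and 9 down under H-7, 1 up and 5 down under mitomycin C, 1 up under rapamycin, and 1 up and 5 down under trichostatin A. Under trichostatin A 6 members differed between the times. TFEB differed by 1.49 ± 0.28 between the times (adjusted p = 1.89e-05), its difference from DMSO being -0.92 at 6 h and 0.57 at 24 h. NEU1 differed by -1.65 ± 0.40 (adjusted p = 0.0016), GLA by -1.53 ± 0.46 and WIPI1 by -1.95 ± 0.44, all 3 having risen at 6 h. Without low-signal arrays these 4 contrasts were 1.64, -1.22, -1.23 and -1.10 and still called.

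GABARAPL1 gained between the times under camptothecin by 1.85 ± 0.32 (adjusted p = 1.47e-05; 2.04 without low-signal arrays) and under rapamycin by 1.29 ± 0.32 (adjusted p = 0.0482; 1.40 without). TFEB gained 0.97 ± 0.28 under mitomycin C (adjusted p = 0.0118; 1.06 without). The 5 falls under mitomycin C shrank when low-signal arrays were left out: WIPI2 differed by -1.74 and 0.00, LAMP2 by -1.47 and -0.33, HEXA by -1.29 and 0.23, ATP6V1A by -1.30 and -0.09, and CTSA by -1.62 and -0.45, the last alone being called in both. Under H-7 RRAGC differed by -1.90 ± 0.37 and, without low-signal arrays, by -0.88, called both times.

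**Figure D5:**
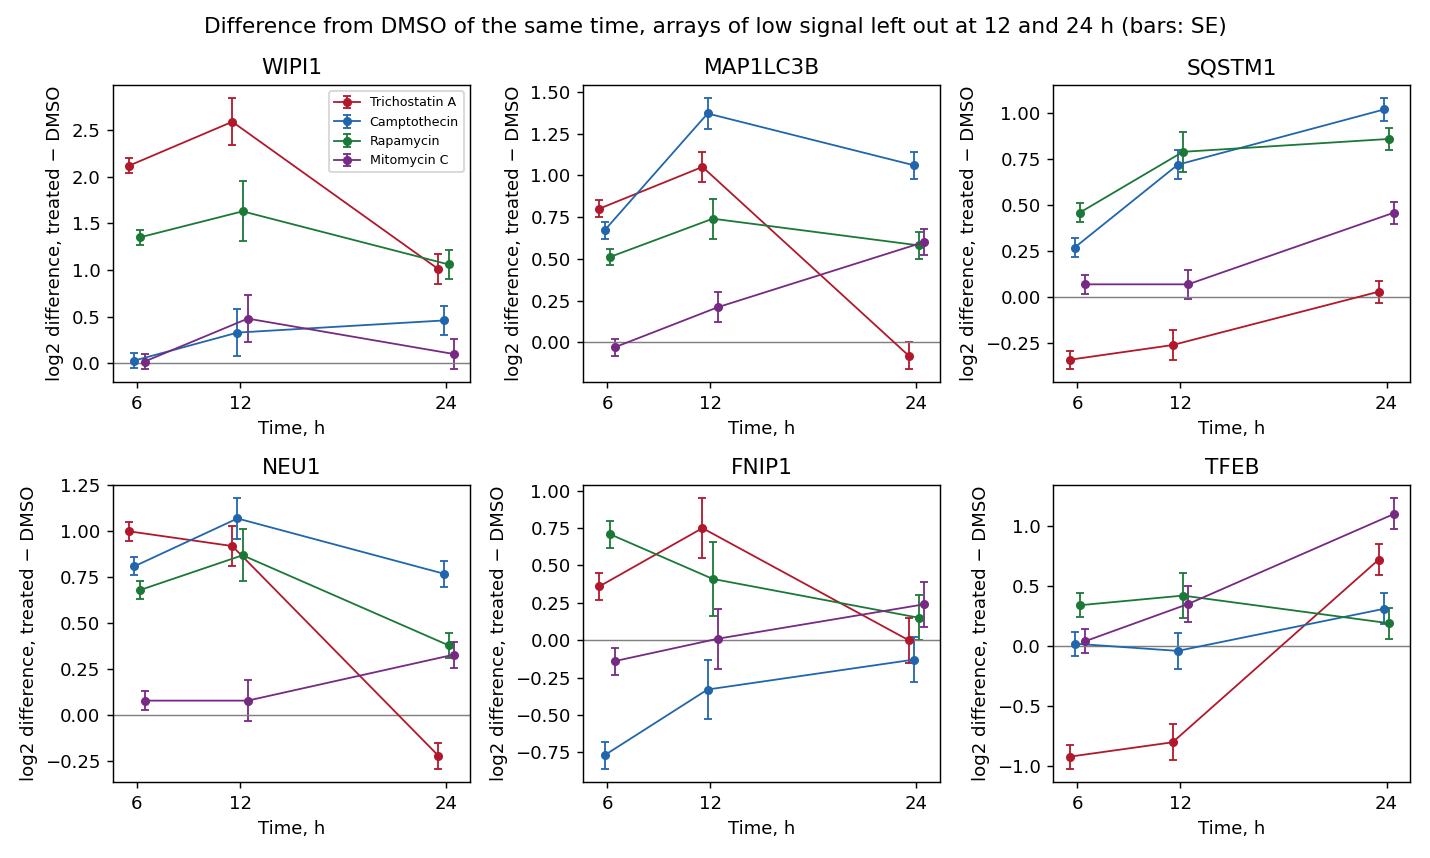
Difference from DMSO of the same time (log2, treated minus DMSO) at 6, 12 and 24 h for 6 genes under trichostatin A, camptothecin, rapamycin and mitomycin C at their higher concentrations, with low-signal arrays left out at 12 and 24 h; bars are SE and points are shifted sideways for clarity. TFEB under trichostatin A lies at -0.92 at 6 h and 0.72 at 24 h, and SQSTM1 under camptothecin at 0.27, 0.72 and 1.02.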

How the data were processed

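Expression was measured on HT HG-U219 arrays and read from the log2 values the authors deposited, which were made with RMA per the submitters' processing notes; the software version is not given in the sources used here. Of 49386 probe sets, 93 controls were dropped, 45259 had 1 gene symbol in the platform annotation and 1327 had several and were left out. Each of 18239 genes was read from the probe set with the highest mean over all arrays. Samples were grouped by their labels. For each time, limma (version 3.58.1, R 4.3.3) fitted group means over all 94 arrays with an intensity trend, and adjustment followed Benjamini and Hochberg within each comparison. The change between 24 and 6 h was fitted over all 282 arrays. The fit was tested on simulated data. The number of arrays limits the precision.

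The members and lists were chosen with earlier results of these data known. Named were, at 6 h, the 2 members of each role with the largest called change (per array) and up to 3 called rises and 3 called falls per compound, at 24 h up to 2 each way per compound among those called with and without low-signal arrays, and up to 3 other pathway genes each way. Further called members are given by value and were chosen after their values were seen. Promoter windows came from RefSeq, GRCh38.p14, matched by symbol. The alternatives were a further quantile normalization, dropping the 40% lowest genes, the mean of all probe sets, the 2 groups alone, a replicate block, leaving out arrays, and averaging methotrexate arrays of equal number.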

Additional observations from a re-analysis of the deposited data

Results flagged for a closer look

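CTSZ had 1 DMSO array at 6 h, at 8.71, that stood apart from the other 7 by the gap test. This was 1 of 23 groups tested, and chance gives about 1 in 20.

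The change from DMSO differed between 24 and 6 h, by the limma test of that difference, for 1 member under camptothecin, 10 under H-7, 6 under mitomycin C, 1 under rapamycin and 6 under trichostatin A. Over all genes the shares called up and down were 0.482% and 1.44%, 4.47% and 8.28%, 2.91% and 9.87%, 0.0329% and 0.143%, and 3.57% and 6.24% in the same order. Under H-7 GABARAPL1 differed by 1.25 with all arrays and by 1.13 without low-signal arrays, and ATP6V0D1 by -1.87 and -0.26. GABARAPL2 (-1.51 and -0.01), CTSA (-1.59 and 0.03) and NPC2 (-1.30 and -0.20) were no longer called without those arrays. The part of array signal in these differences was not tested.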

How the results depend on the processing

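The fold changes against DMSO named by the rule, 49 at 6 h and 17 at 24 h, kept their sign under each alternative run. Differences between 24 and 6 h did not all do so: without low-signal arrays HEXA under mitomycin C was 0.23 (-1.29 with all arrays) and CTSA under H-7 0.03 (-1.59). The balance of calls turned too, to 177 up and 44 down at 24 h (16 and 24 with all arrays) and 98 up and 43 down between times (5 and 19). With the mean of all probe sets the 6 h calls were 1 for aclacinomycin A, 1 for methotrexate and 4 for etoposide. With the 2 groups alone they were 2 for doxorubicin, 68 over all compounds at 12 h and 120 at 24 h. Without the 40% lowest genes mitomycin C had 1. Without low-signal arrays there were 118 calls at 12 h, or 105 when compounds left with 1 array were dropped as well, a choice made after seeing the data, 221 at 24 h and 141 for the difference between 24 and 6 h. The replicate block left 20 calls at 24 h; replicate numbers did not pair the samples, the median correlation of same-numbered deviations being 0.004 at 24 h with a lowest of -0.649. Leaving out 1 replicate or DMSO array at a time gave 1 to 5 calls for doxorubicin, 0 to 2 for etoposide, 5 to 8 for geldanamycin, 0 to 1 for mitomycin C, 5 to 10 for monastrol, 0 to 2 for vincristine, 15 to 27 for medium, 41 to 70 between concentrations, 1 to 82 at 12 h, 33 to 49 at 24 h and 20 to 37 between times. It gave 28 to 31 for camptothecin, 20 to 24 for cycloheximide, 25 to 27 for H-7, 22 to 25 for rapamycin, 30 to 36 for trichostatin A and 63 to 83 for the lower concentrations. The causes were not tested. Of the named values at 6 h, 234 repeats under other settings kept their call and 10 lost it. With a replicate number or a DMSO array left out, 513 kept it and 26 lost it. At 24 h the counts were 85 and 18, and 162 and 25.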
